A study of Homo sapiens with 36 samples.

Results

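LoVo, an established human colorectal cancer line, was exposed for 24 hours to a MEK inhibitor at 10 doses, and the comparison described here sets the 1 nM dose directly against the next lower one, 0.3 nM. It rests on 6 of the 36 libraries of the series, 3 at 1 nM and 3 at 0.3 nM, chosen by the dose in their labels. All 20802 genes of the count table were used, and rows for spike-in controls were left out. Cells of both groups grew in serum-containing F-12K medium and received the same inhibitor for the same time, and dose is the only difference their labels give. A chip is given for the DMSO libraries (chip 1 or 2) and for no library at 1 or 0.3 nM, so whether these doses shared a chip is not known. The labels identify the inhibitor only by its number in a published chemical series. They speak of biological replicates but do not say how separate the cultures were. P-values therefore cover only the variation within the groups of libraries, pooled over all 36, which may be partly technical. The remaining libraries hold other doses of the inhibitor, from 0.03 to 1000 nM, or DMSO, the solvent. They enter through the shared model and as libraries in which genes were looked at again.

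MEK is the kinase pair (MAP2K1 and MAP2K2) that phosphorylates and switches on ERK, the last kinase of the RAS-RAF-MEK-ERK cascade. In colorectal cancer cells this cascade is often driven by mutant RAS or RAF, and active ERK keeps up the transcription of growth genes and of its own inhibitors, among them DUSP phosphatases and Sprouty proteins. Because those inhibitors are transcribed when ERK is active, their RNA levels are widely used as a readout of the pathway.

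RNA was read as short amplicons made gene by gene (Ion AmpliSeq), so a count depends on how well a gene's amplicon amplifies, and levels are compared between libraries and not between genes. The counts come from bulk lysates, in which fewer cells of a type and less RNA per cell cannot be told apart. Totals per library were 2989396, 4678461 and 4222407 counts at 1 nM and 4641017, 4382647 and 4496038 counts at 0.3 nM. Among the 6, replicate 1 of 1 nM stood apart. It had the lowest total of the 6, and the SD of its log2 deviations from the group mean over tested genes was 0.343, against 0.246 and 0.258 in the other 1 nM libraries, 0.205 to 0.207 in the 0.3 nM libraries and a median of 0.23 over all 36. At 1000 nM, a dose used for comparison below, replicates 1, 2 and 3 were at 0.347, 0.241 and 0.318. All 14 markers of colorectal epithelium that were checked had counts in these libraries, as the label implies. Of 5 endothelial and 5 blood cell markers, 3 each were at 0 in all 6 libraries. Of 9 fibroblast markers, COL1A2, DCN, THY1, FAP and POSTN were at 0 in all 6, and the summed level of the list was 9.24 to 9.62 CPM (counts scaled to library size) at 1 nM and 3.19 to 5.78 CPM at 0.3 nM. The part of that small difference in the results was not tested.

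At 1 nM 308 of 12102 tested genes, or 2.55%, differed from 0.3 nM. Calls were made with the quasi-likelihood test of edgeR, adjusted by Benjamini-Hochberg, at 0.05. Variation was estimated over all 36 libraries. With only the 6 libraries of the step in the model, 61 of 11434 tested genes were called. Of the 308, 162 genes (1.34% of those tested) were higher and 146 (1.21%) lower at 1 nM. Most changes were small. Sizes ran from 0.29 to 1.54 on the log2 scale with a median of 0.51, and 6 genes were at least 2-fold higher and 6 at least 2-fold lower. The median log2 fold change over all tested genes was 0.0068, and 51.2% of them had values above 0. Shares of all tested genes given here are the background for the calls of every list below. In 299 of the 308 genes the libraries of both doses did not overlap, as in 20.5% of all tested genes.

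The number of calls changed when 1 library was left out, which also leaves its group with only 2. A lost call therefore does not by itself single out the library left out. Without replicate 1 of 1 nM, 151 genes were called (1.24% of those tested in that fit), 72 higher (0.589%) and 79 lower (0.646%), 122 of the 151 were among the 308, and all 308 kept their sign. Leaving out replicates 1, 2 and 3 of 0.3 nM in turn gave 130, 117 and 133 calls, and leaving out replicates 2 and 3 of 1 nM gave 323 and 378. In all, 33 genes were called higher and 40 lower in the full fit and in each of these 6 fits with a library left out. Among the genes named below, those that belong to this core are ASNS, CCNB2, CEACAM5, DHCR7, DNAJA1, DUSP6, EGR1, EPRS, FHOD1, H1F0, HSD17B2, HSPE1, INSIG1, LARP6, LIG1, MT1A, MTHFD1L, MTHFD2, MX1, PCNA, PLA2G2A, PSAT1, RPS6KA5, SARS, SCD, SLC2A1, TCP11L2 and XPOT. For any other called gene the text gives how many of the 6 leave-outs lost the call, with the highest adjusted p of edgeR's test among them and the library whose omission gave it.

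Of 10 genes often used to score MAPK activity, 4 fell, led by feedback inhibitors of ERK. DUSP6, a phosphatase that inactivates ERK, had 35.2, 37.5 and 35.6 CPM at 1 nM, against 55.5, 57.4 and 58.4 CPM at 0.3 nM, a log2 fold change of -0.66 (SE 0.12, adjusted p = 0.000585 in edgeR's test). The 1 nM libraries were close to each other and far below every 0.3 nM library. PHLDA1, a pleckstrin homology protein induced by ERK, had 283, 275 and 283 CPM at 1 nM and 379, 373 and 345 CPM at 0.3 nM, a log2 fold change of -0.38 (SE 0.095, adjusted p = 0.016 in edgeR's test). Its call was lost in 2 of 6 leave-outs (adjusted p up to 0.0777, without replicate 1 of 0.3 nM). SPRY2, a Sprouty inhibitor of receptor signalling, had 38.6, 39.5 and 43.7 CPM at 1 nM and 55.5, 56 and 58.6 CPM at 0.3 nM. It fell by 0.48 on the log2 scale (adjusted p = 0.023 in edgeR's test), lost in 5 of 6 leave-outs (up to 0.088, without replicate 3 of 0.3 nM). DUSP4, a phosphatase related to DUSP6, had 77.6, 77.5 and 91.9 CPM at 1 nM and 107, 111 and 111 CPM at 0.3 nM. It fell by 0.41 (adjusted p = 0.0233 in edgeR's test), also lost in 5 of 6 leave-outs (up to 0.0829, without replicate 2 of 0.3 nM). In each of these genes all 1 nM libraries were below all 0.3 nM libraries.

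The remaining members of the MAPK activity list did not pass the test. EPHA2, a receptor tyrosine kinase, had 316, 307 and 326 CPM at 1 nM and 410, 402 and 393 CPM at 0.3 nM, groups that did not overlap (log2 fold change -0.34, SE 0.117, adjusted p = 0.104 in edgeR's test). ETV4 and ETV5, ETS transcription factors downstream of ERK, had log2 fold changes of -0.36 (SE 0.137) and -0.22 (SE 0.165). CCND1, the G1 cyclin D1, was at 276 ± 27.5 CPM at 1 nM and 273 ± 7.6 CPM at 0.3 nM (SD, n = 3 each). SPRY4, another Sprouty gene, and EPHA4, a receptor related to EPHA2, had means below 5 CPM in both groups. With 0 members higher, the list median was -0.37, beside 1.21% of tested genes called lower and the median of 0.0068 over all of them. With replicate 1 of 1 nM left out, 2 of the 10 fell and the median was again -0.37.

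**Figure D1:**
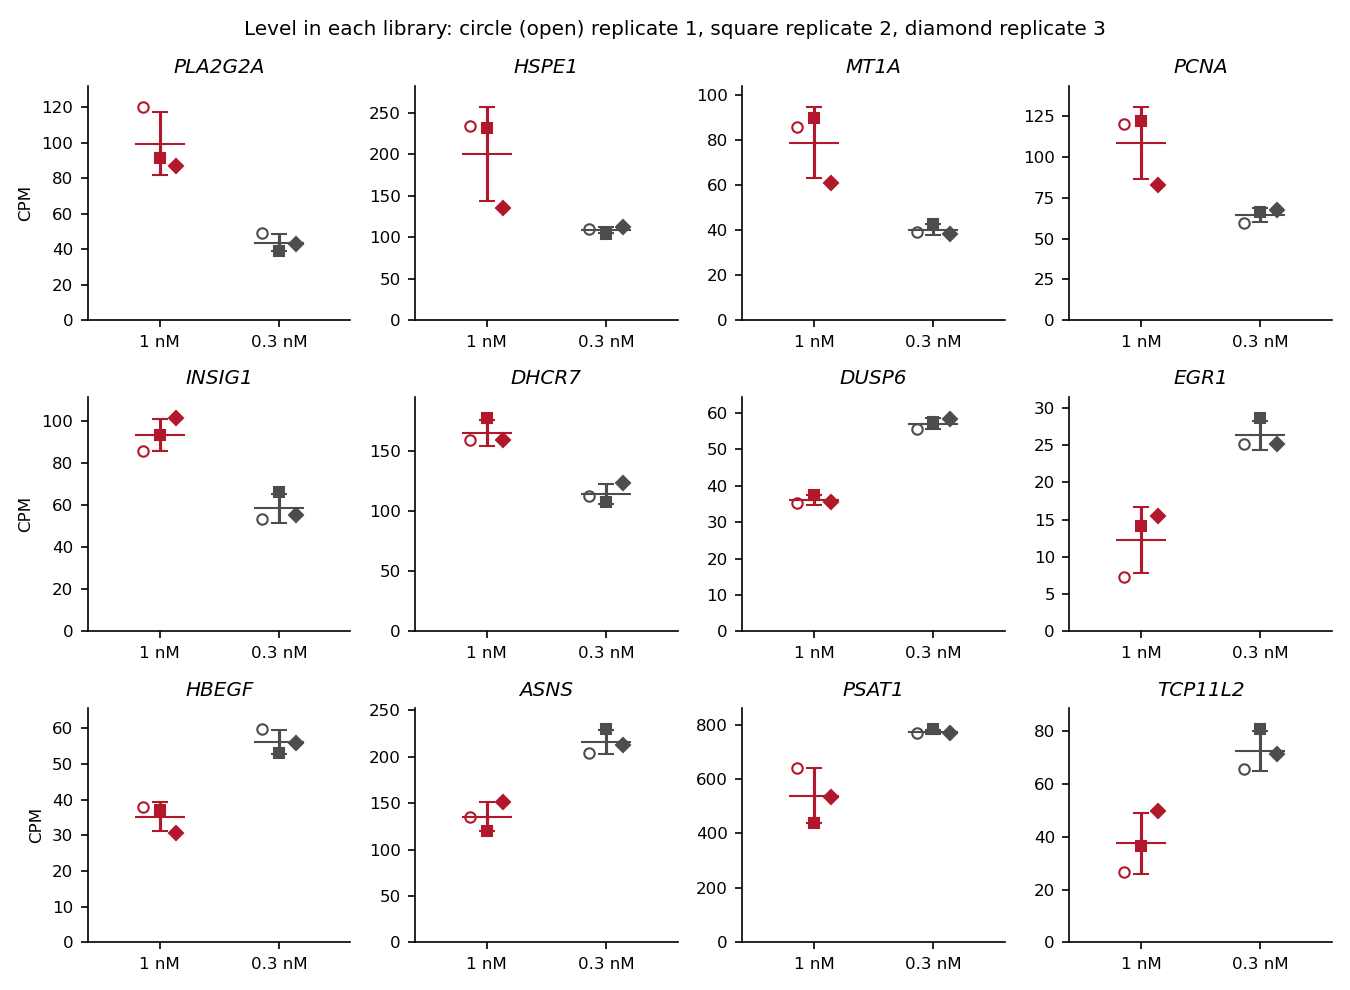
Level (CPM, y axes from 0) of 12 genes in each library at 1 nM (red, left) and 0.3 nM (grey, right), with the mean and SD of 3 libraries. The 1 nM libraries lie above all 0.3 nM libraries for PLA2G2A, HSPE1, MT1A, PCNA, INSIG1 and DHCR7 and below them for DUSP6, EGR1, HBEGF, ASNS, PSAT1 and TCP11L2. For HSPE1 and PCNA replicate 3 of 1 nM (135 and 82.8 CPM) stands nearer to 0.3 nM than its companions.

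Among 8 immediate early genes, which are transcribed within minutes of a growth signal, EGR1 fell. This zinc finger transcription factor had 7.24, 14.1 and 15.5 CPM at 1 nM and 25.1, 28.6 and 25.2 CPM at 0.3 nM, a log2 fold change of -1.05 (SE 0.184, adjusted p = 0.000391 in edgeR's test). Replicate 1 of 1 nM was the lowest, and without it the change was -0.84 and still called. FOS, an AP-1 subunit, had 3.45, 1.74 and 2.86 CPM at 1 nM and 4.63, 7.55 and 6.02 CPM at 0.3 nM, with a log2 fold change of -1.22 (SE 0.362) that missed the threshold (adjusted p = 0.054 in edgeR's test). The other 6 were not called, and the list median was -0.25.

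HBEGF, a growth factor that activates the EGF receptor, had 37.9, 37.1 and 30.6 CPM at 1 nM and 59.7, 53.1 and 55.9 CPM at 0.3 nM, so every 1 nM library was lower. Its log2 fold change was -0.68 (SE 0.158, adjusted p = 0.00972 in edgeR's test), lost in 2 of 6 leave-outs (up to 0.0585, without replicate 1 of 0.3 nM). AREG, a related ligand, had 64.1, 55.8 and 67.5 CPM at 1 nM and 81.8, 94.5 and 80 CPM at 0.3 nM, with a log2 fold change of -0.45 (SE 0.144, adjusted p = 0.0802 in edgeR's test). All 5 ligands tested had values below 0, with a median of -0.52, and 1 of the 5 fell.

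Among 10 further genes known to respond to ERK, 1 fell and 1 rose. FOSL1, another AP-1 subunit, averaged 36.5 ± 9.91 CPM at 1 nM and 56.9 ± 5.67 CPM at 0.3 nM (SD, n = 3 each), a log2 fold change of -0.62 (SE 0.131, adjusted p = 0.00324 in edgeR's test). The call was lost without replicate 1 of 1 nM (0.0551), the library with the lowest level. DUSP7, a further ERK phosphatase, had 57.9, 53.4 and 45.3 CPM at 1 nM and 37.5, 38.9 and 33.4 CPM at 0.3 nM, so every 1 nM library was higher. It rose by 0.51 (SE 0.138, adjusted p = 0.0338 in edgeR's test), lost in 5 of 6 leave-outs (up to 0.169, without replicate 3 of 0.3 nM). In the libraries of 3 nM against 0.1 nM DUSP7 was at 0.16 (SE 0.135) and not called. At 1000 nM DUSP7 was called lower than in DMSO, at -0.62 (SE 0.155).

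The kinases of the cascade were not called. Over 12 genes of RAS, RAF, MEK and ERK the median was 0.066 with 0 calls. MAP2K1 had 109, 106 and 105 CPM at 1 nM and 103, 92.6 and 101 CPM at 0.3 nM (log2 fold change 0.11, SE 0.091). MAP2K2 was at 0.039 (SE 0.101), BRAF at -0.085 (SE 0.11) and MAPK3, which encodes ERK1, at 0.094 (SE 0.107). Among 10 receptor tyrosine kinases the test called 0, and IGF1R came nearest at 0.25 (SE 0.098).

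Genes that serve the supply of amino acids were a further group with falls. They are known targets of ATF4, a transcription factor that acts when amino acids run short or the endoplasmic reticulum is under stress, together with enzymes of serine and one-carbon metabolism and the aminoacyl-tRNA synthetases that load amino acids on tRNAs. ATF4 binds with a C/EBP partner to a composite site whose core can be written TGATGNAA. Stretches of 100 bases before the start of ASNS and of MTHFD1L are shown, since both genes fell in the step and have that core in the 250 bases before their start (RefSeq, GRCh38.p14, 5′ to 3′ on the gene's strand). The ASNS stretch is chr7:97872423-97872522 on the minus strand and the MTHFD1L stretch is chr6:150866311-150866410 on the plus strand. Capitals mark the match.
ASNS: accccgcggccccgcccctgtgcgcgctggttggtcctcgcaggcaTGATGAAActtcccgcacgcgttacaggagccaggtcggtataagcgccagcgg
MTHFD1L: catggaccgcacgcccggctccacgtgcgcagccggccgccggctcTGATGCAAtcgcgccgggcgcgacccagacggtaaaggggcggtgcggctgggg

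The core was searched on both strands. It was present in 870 of 27305 promoters of the RefSeq table (3.19%) and in 131 of 9607 promoters of tested genes (1.36%). It was held by 2 of 15 matched promoters of the ATF4 target list (ASNS and CHAC1), 1 of 6 of the serine list (MTHFD1L) and 2 of 13 of the synthetases (AARS and IARS). CHAC1, AARS and IARS were not called in the step. A match describes letters and does not show binding.

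ASNS, asparagine synthetase, had 135, 120 and 151 CPM at 1 nM, against 204, 229 and 213 CPM at 0.3 nM. All 1 nM libraries were lower, the log2 fold change was -0.67 (SE 0.098) and the adjusted p was 4.3e-05 in edgeR's test. XPOT, which exports tRNA from the nucleus, had 118, 110 and 138 CPM at 1 nM and 194, 186 and 185 CPM at 0.3 nM, a log2 fold change of -0.63 (SE 0.101, adjusted p = 0.00018 in edgeR's test). TRIB3, a pseudokinase, had 460, 386 and 525 CPM at 1 nM and 663, 572 and 650 CPM at 0.3 nM (log2 fold change -0.46, SE 0.107), lost in 3 of 6 leave-outs (adjusted p up to 0.0796, without replicate 2 of 1 nM, in edgeR's test). In these genes the groups did not overlap. NUPR1, a small stress protein, averaged 13.5 ± 2.96 CPM at 1 nM and 22.9 ± 3.92 CPM at 0.3 nM (-0.74, SE 0.179), lost in 2 leave-outs (up to 0.128, without replicate 2 of 0.3 nM). Of 17 tested members 4 fell and 0 rose, beside 1.21% and 1.34% of all tested genes. Values below 0 were found in 16 members, and the median was -0.29. Without replicate 1 of 1 nM, 5 fell.

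PSAT1, the aminotransferase of serine synthesis, had 640, 439 and 535 CPM at 1 nM and 770, 782 and 768 CPM at 0.3 nM. The 0.3 nM libraries were close together and above every 1 nM library, and the log2 fold change was -0.53 (SE 0.096, adjusted p = 0.000615 in edgeR's test). MTHFD1L, a mitochondrial enzyme of one-carbon metabolism, had 39, 63.6 and 56.3 CPM at 1 nM and 89.5, 89.4 and 89.8 CPM at 0.3 nM (log2 fold change -0.74, SE 0.142, adjusted p = 0.00144 in edgeR's test). MTHFD2, another mitochondrial enzyme of that pathway, had 971, 871 and 997 CPM at 1 nM and 1224, 1272 and 1231 CPM at 0.3 nM, a log2 fold change of -0.39 (SE 0.08). Both were lower in every 1 nM library. PSPH, the phosphatase that completes serine synthesis, had 57.9, 77.5 and 105 CPM at 1 nM and 117, 116 and 97 CPM at 0.3 nM. Its groups overlapped, and its call (log2 fold change -0.44, adjusted p = 0.0373 in edgeR's test) was lost in 4 of 6 leave-outs (up to 0.268, without replicate 1 of 1 nM). Of 9 enzymes 4 fell and 0 rose, with a median of -0.39. With replicate 1 of 1 nM left out 3 fell, with a median of -0.28.

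Of 20 aminoacyl-tRNA synthetases, 4 fell and 0 rose, beside 1.21% and 1.34% of all tested genes, and the median was -0.26. SARS, which loads serine, had 216, 258 and 314 CPM at 1 nM and 389, 420 and 393 CPM at 0.3 nM (log2 fold change -0.61, SE 0.106, adjusted p = 0.000391 in edgeR's test). EPRS, which loads glutamate and proline, averaged 190 ± 23.4 CPM at 1 nM and 265 ± 10.7 CPM at 0.3 nM (-0.48, SE 0.097). YARS, which loads tyrosine, averaged 135 ± 21.4 CPM at 1 nM and 187 ± 7.51 CPM at 0.3 nM (-0.47, SE 0.114), lost in 3 of 6 leave-outs (adjusted p up to 0.11, without replicate 2 of 1 nM, in edgeR's test). In all 3 the groups were apart. WARS, which loads tryptophan, had 243, 295 and 433 CPM at 1 nM and 452, 446 and 434 CPM at 0.3 nM. Replicate 3 of 1 nM was level with the 0.3 nM libraries, and the call (-0.45, adjusted p = 0.0379 in edgeR's test) was lost in 5 leave-outs (up to 0.249, without replicate 1 of 1 nM).

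Genes of ribosome biogenesis, which builds the machinery that uses those amino acids, were mostly below 0 by small amounts. Of 28, 25 had values below 0, 2 fell and 0 rose, and the median was -0.22. RRN3, a factor that brings RNA polymerase I to the ribosomal genes, averaged 45.6 ± 12.4 CPM at 1 nM and 65.2 ± 1.38 CPM at 0.3 nM (log2 fold change -0.50, SE 0.14), lost in 5 of 6 leave-outs (adjusted p up to 0.255, without replicate 1 of 1 nM, in edgeR's test). LYAR, a nucleolar protein, averaged 81 ± 1.82 CPM at 1 nM and 106 ± 5.75 CPM at 0.3 nM (-0.38, SE 0.112), lost in all 6 (up to 0.17, without replicate 1 of 0.3 nM). The median of 32 cytosolic ribosomal proteins was 0.014, with 0 calls, and RPL19 came nearest at -0.31 (adjusted p = 0.0545 in edgeR's test). None of 10 partners of the MYC network, 15 enzymes of purine and pyrimidine synthesis or 9 genes of polyamine metabolism was called.

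**Figure D2:**
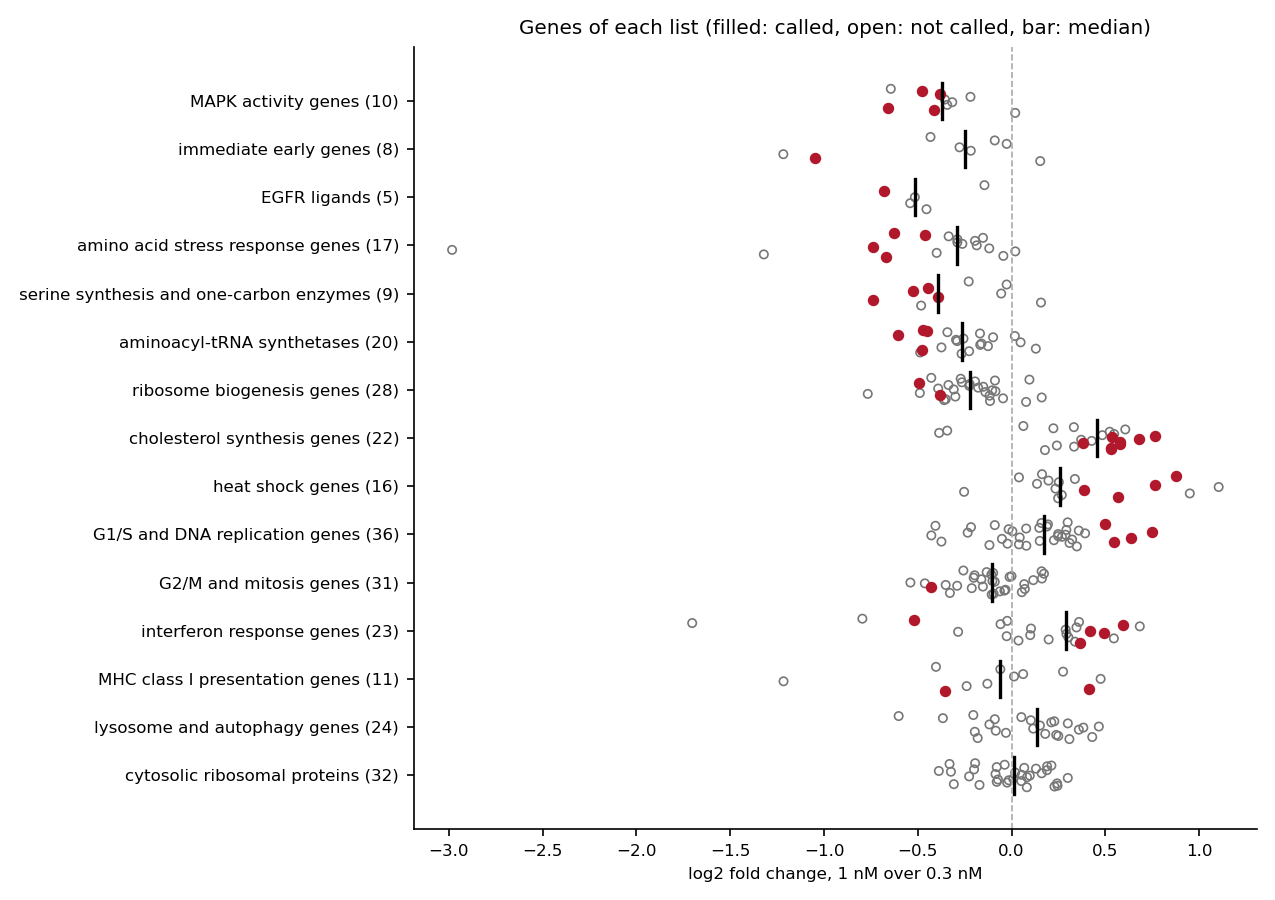
Log2 fold change, 1 nM over 0.3 nM (x axis), of the tested genes of 15 lists (rows, with the number tested in brackets). Filled red points passed the test, open points did not, and black bars are medians. MAPK activity, EGFR ligand, amino acid stress, serine and synthetase lists have medians of -0.26 or lower, and cholesterol genes have a median of 0.46 with 8 filled points.

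Of 22 cholesterol synthesis genes 8 rose and 0 fell, beside 1.34% and 1.21% of all tested genes. These genes are targets of SREBP2, a transcription factor released when sterols in the endoplasmic reticulum are low. INSIG1, which retains the SREBP complex there, had 85.8, 93.1 and 101 CPM at 1 nM and 53.6, 66.3 and 55.3 CPM at 0.3 nM, a log2 fold change of 0.68 (SE 0.123, adjusted p = 0.000538 in edgeR's test). The lowest 1 nM library was well above the highest 0.3 nM library. DHCR7, an enzyme of the final step, had 159, 177 and 159 CPM at 1 nM and 112, 108 and 124 CPM at 0.3 nM (log2 fold change 0.53, SE 0.107). HMGCS1, which makes the precursor of mevalonate, had 93.8, 136 and 120 CPM at 1 nM and 81.1, 74.1 and 80.5 CPM at 0.3 nM (0.58, SE 0.128), lost in 2 of 6 leave-outs (adjusted p up to 0.0656, without replicate 2 of 1 nM, in edgeR's test). In these genes every 1 nM library was higher. Of the 22 members 20 had values above 0 and the median was 0.46. Without replicate 1 of 1 nM, 5 rose and the median was 0.33.

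SCD, the desaturase that makes oleate and a target of the related factor SREBP1, had 522, 423 and 392 CPM at 1 nM and 309, 297 and 292 CPM at 0.3 nM. It rose by 0.57 (SE 0.092, adjusted p = 0.00018 in edgeR's test), with every 1 nM library higher. FASN, fatty acid synthase, had 331, 367 and 391 CPM at 1 nM and 308, 269 and 297 CPM at 0.3 nM and was not called (log2 fold change 0.32, adjusted p = 0.111 in edgeR's test). The median of 9 fatty acid synthesis genes was -0.046, and SCD was their 1 call. A sterol response element, searched as TCACNCCAC on both strands of the same 250 bases, was present in 0.875% of all promoters and in 0.801% of those of tested genes. Of 16 matched promoters of the cholesterol list that of SREBF2 held it, and 0 of the 5 matched promoters of called members did. The absence of a match says only that these letters are not in this window. The pair of motifs was searched separately.

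Of 16 heat shock genes, chaperones that help proteins fold, 4 rose and 0 fell, beside 1.34% and 1.21% of all tested genes. The list had 15 values above 0 and a median of 0.26. HSPE1, the mitochondrial chaperonin cap, had 234, 232 and 135 CPM at 1 nM and 110, 104 and 112 CPM at 0.3 nM. Replicate 3 of 1 nM was nearest to 0.3 nM but above all of its libraries, and the log2 fold change was 0.88 (SE 0.128, adjusted p = 4.3e-05 in edgeR's test). DNAJA1, a co-chaperone of HSP70, had 198, 173 and 133 CPM at 1 nM and 119, 111 and 109 CPM at 0.3 nM (0.57, SE 0.101, adjusted p = 0.000441 in edgeR's test). HSPA1B, an inducible HSP70, averaged 41.9 ± 5.55 CPM at 1 nM and 24.4 ± 4.46 CPM at 0.3 nM (0.76, SE 0.163), lost in 1 leave-out (adjusted p = 0.0718 without replicate 1 of 0.3 nM in edgeR's test). HSP90AA1, the inducible HSP90, overlapped, with 543, 431 and 345 CPM at 1 nM and 335, 328 and 346 CPM at 0.3 nM (0.39, SE 0.107). Its call was lost in 5 of 6 leave-outs (adjusted p up to 0.393, without replicate 1 of 1 nM, in edgeR's test). HSPA1B shares most of its sequence with HSPA1A, and HSPE1 has pseudogene copies, so reads may be split between copies.

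Of 7 metallothioneins, proteins that bind metals, 2 rose. MT1A had 85.8, 89.8 and 60.9 CPM at 1 nM and 39.2, 43 and 38.3 CPM at 0.3 nM (log2 fold change 0.97, SE 0.143, adjusted p = 4.3e-05 in edgeR's test), with all 1 nM libraries higher. MT2A had 245, 183 and 143 CPM at 1 nM and 137, 136 and 138 CPM at 0.3 nM (0.47, SE 0.122), a call lost in 4 of 6 leave-outs (adjusted p up to 0.338, without replicate 1 of 1 nM, in edgeR's test). The other 5 were not called and the median of the 7 was 0.065. Members of this family are near-identical, which makes the assignment of their reads uncertain.

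Of 36 genes of S-phase entry and DNA replication 4 rose and 0 fell, beside 1.34% and 1.21% of all tested genes. PCNA, the sliding clamp of DNA polymerases, had 120, 122 and 82.8 CPM at 1 nM and 59.3, 66.3 and 67.3 CPM at 0.3 nM. All 1 nM libraries were higher, and the log2 fold change was 0.75 (SE 0.117, adjusted p = 0.000135 in edgeR's test). LIG1, the ligase that joins Okazaki fragments, had 166, 122 and 125 CPM at 1 nM and 88.8, 81.4 and 93.8 CPM at 0.3 nM (0.63, SE 0.111, adjusted p = 0.000377 in edgeR's test). E2F1, a transcription factor of S-phase entry, had 71.4, 60.1 and 48.9 CPM at 1 nM and 44.3, 38.9 and 39.2 CPM at 0.3 nM (0.55, SE 0.13), lost in 3 of 6 leave-outs (adjusted p up to 0.122, without replicate 1 of 1 nM, in edgeR's test). SLBP, the histone mRNA binding protein, averaged 119 ± 16.9 CPM at 1 nM and 84.2 ± 2.65 CPM at 0.3 nM (0.50, SE 0.111), lost in 2 (up to 0.0772, without replicate 1 of 1 nM). In these 4 genes every 1 nM library was higher, 26 of the 36 had values above 0 and the list median was 0.17. Leaving out replicate 1 of 1 nM left 2 rises and a median of 0.16.

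Of 31 genes of G2 and mitosis 1 fell (3.23%, beside 1.21% of all tested genes), 0 rose and 24 had values below 0, with a median of -0.10. CCNB2, cyclin B2, had 232, 226 and 244 CPM at 1 nM and 334, 303 and 307 CPM at 0.3 nM, so the groups were well apart (log2 fold change -0.43, SE 0.088, adjusted p = 0.00237 in edgeR's test). Its DMSO means were 291 and 299 CPM on chips 1 and 2, between the means of both doses. CCNB2 was not called at 3 nM against 0.1 nM (-0.23, SE 0.087) or at 1000 nM against DMSO (-0.085, SE 0.088). CDC25B, a phosphatase that activates mitotic CDK1, was at -0.29 (adjusted p = 0.112 in edgeR's test). None of 12 G1 cyclins, CDKs and CDK inhibitors was called, with CCND2, cyclin D2, nearest at 0.36 (SE 0.141). None of the 12 tested genes of the histone list was called, although HIST1H2AC had 228, 206 and 270 CPM at 1 nM and 431, 413 and 400 CPM at 0.3 nM (-0.82, SE 0.284, adjusted p = 0.134 in edgeR's test). Histone genes outside that list were called lower, among them H1F0, described below. Histone genes too are near-identical copies.

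Among 23 interferon response genes 4 rose and 1 fell, beside 1.34% and 1.21% of all tested genes, and the median was 0.29. MX1, a GTPase that blocks viral replication, had 121, 97.2 and 105 CPM at 1 nM and 64.8, 71.8 and 76.2 CPM at 0.3 nM (log2 fold change 0.60, SE 0.118, adjusted p = 0.00171 in edgeR's test). IFITM1, a membrane protein that restricts virus entry, averaged 177 ± 11.8 CPM at 1 nM and 126 ± 7.43 CPM at 0.3 nM (0.49, SE 0.106), lost in 1 leave-out (adjusted p = 0.0611 without replicate 2 of 0.3 nM in edgeR's test). Its relative IFITM3 averaged 181 ± 11.5 CPM at 1 nM and 135 ± 15.2 CPM at 0.3 nM (0.42, SE 0.1), lost in 3 (up to 0.109, without replicate 3 of 0.3 nM). In all 3 genes the groups did not overlap. STAT2, which carries the interferon signal to the nucleus, had 26.9, 34.5 and 22.4 CPM at 1 nM and 37.9, 43.5 and 39.7 CPM at 0.3 nM (-0.52, SE 0.143), so every 1 nM library was lower. Its call was lost in 5 of 6 leave-outs (adjusted p up to 0.161, without replicate 2 of 0.3 nM, in edgeR's test). STAT2 was the 1 gene called lower in the step and called higher at 3 nM against 0.1 nM, where it was at 0.51 (SE 0.135). Leaving out replicate 1 of 1 nM, 3 interferon genes rose and 0 fell, with a median of 0.16.

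B2M, the light chain of MHC class I molecules, averaged 47.8 ± 3.92 CPM at 1 nM and 61.5 ± 0.92 CPM at 0.3 nM (SD, n = 3 each) and fell by 0.36 (SE 0.104). Its groups did not overlap, and its call was lost in 5 of 6 leave-outs (adjusted p up to 0.184, without replicate 1 of 1 nM, in edgeR's test). Among 11 tested MHC class I presentation genes 1 fell (B2M) and 1 rose, beside 1.21% and 1.34% of all tested genes. The median of the 11 was -0.06, and 0 were called without replicate 1 of 1 nM.

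Genes of colorectal epithelial identity included changes in both directions. CEACAM5, the carcinoembryonic antigen, had 92, 142 and 134 CPM at 1 nM and 208, 185 and 176 CPM at 0.3 nM, a log2 fold change of -0.62 (SE 0.103, adjusted p = 0.000227 in edgeR's test). VIL1, villin of the brush border, had 84.1, 89.4 and 80.2 CPM at 1 nM and 64.2, 64.3 and 59.7 CPM at 0.3 nM (0.43, SE 0.105), lost in 4 of 6 leave-outs (adjusted p up to 0.0951, without replicate 3 of 0.3 nM, in edgeR's test). Both had groups that did not overlap, and they were the 2 calls among 14 markers of this epithelium, beside 2.55% of all tested genes called. CLDN7, a tight junction protein, fell by 0.39 (SE 0.094), lost in 1 leave-out (0.0674 without replicate 1 of 0.3 nM), and JUP, plakoglobin of desmosomes, rose by 0.38 (SE 0.1), lost in 4 (up to 0.312, without replicate 1 of 1 nM). EPHB2, a receptor of crypt cells under WNT control, had 75.2, 79.8 and 76.1 CPM at 1 nM and 49.8, 58.3 and 52.8 CPM at 0.3 nM (0.52, SE 0.115), lost in 1 leave-out (0.0647 without replicate 1 of 0.3 nM). It was the 1 call among 14 WNT target and crypt genes. Of 5 tested genes of secretory gut cells 0 were called, and MUC2, the main gut mucin, was at -0.29 (adjusted p = 0.0948 in edgeR's test). None of 17 tensin, integrin and laminin genes, 14 YAP/TEAD targets or 24 lysosome and autophagy genes was called.

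SLC2A1, the glucose transporter GLUT1, had 190, 224 and 240 CPM at 1 nM and 340, 306 and 311 CPM at 0.3 nM (log2 fold change -0.54, SE 0.098, adjusted p = 0.000482 in edgeR's test). VEGFA, the angiogenic growth factor, had 40.7, 29.5 and 34.1 CPM at 1 nM and 50.3, 49.2 and 54.4 CPM at 0.3 nM (-0.58, SE 0.137), lost in 2 of 6 leave-outs (adjusted p up to 0.0785, without replicate 2 of 1 nM, in edgeR's test). These were the 2 calls among 23 glycolysis and hypoxia genes, and both were lower in every 1 nM library. NFE2L2, which encodes NRF2, a transcription factor of the antioxidant response, fell by 0.45 (SE 0.126), lost in 5 of 6 leave-outs (adjusted p up to 0.118, without replicate 1 of 0.3 nM, in edgeR's test). Among 8 tested targets of NRF2, 1 rose and 0 fell, with a median of 0.096.

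Of 16 genes of the unfolded protein response HERPUD1, a protein of the endoplasmic reticulum membrane, and ERN1, the stress sensor IRE1, fell by 0.44 (SE 0.113) and 0.82 (SE 0.21). HERPUD1 lost its call in 3 of 6 leave-outs (adjusted p up to 0.131, without replicate 3 of 1 nM) and ERN1 in 2 (up to 0.167, without replicate 1 of 1 nM, both in edgeR's test). GDF15, a stress cytokine and p53 target, averaged 344 ± 56.9 CPM at 1 nM and 466 ± 38.5 CPM at 0.3 nM (-0.43, SE 0.118), lost in 5 (up to 0.223, without replicate 1 of 1 nM). IRS1, the insulin receptor substrate, averaged 55.2 ± 4.09 CPM at 1 nM and 73.6 ± 10.1 CPM at 0.3 nM (-0.42, SE 0.12), lost in 4 (up to 0.27, without replicate 1 of 0.3 nM). Among 15 BCL2 family genes 0 were called, and BCL2L11, the pro-apoptotic BIM gene, came nearest at 0.42 (SE 0.15).

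Most lists without a call by edgeR held genes at an unadjusted p below 0.05, as did 1997 of the 12102 tested genes. There was 1 such gene each among 12 cascade kinases, 10 receptor tyrosine kinases and 12 G1 cyclins, CDKs and inhibitors. There were 2 each among 10 MYC partners, 15 nucleotide enzymes, 15 BCL2 family genes, 5 secretory genes, 14 YAP/TEAD targets and 12 histone genes. There were 4 among 17 adhesion genes and 8 each among 32 ribosomal proteins and 24 lysosome genes. None was found among 9 polyamine genes, 4 mesenchymal transition genes (median -0.062) or the 1 tested blood cell marker. Among these lists the highest share was in the fibroblast markers, where 2 of 3 tested genes (COL3A1, a collagen, and LUM, a matrix proteoglycan) had such a p. All 3 had values above 0 and the median was 1.37, but counts were low. COL3A1 had 8, 20 and 18 counts at 1 nM and 5, 3 and 12 at 0.3 nM. LUM had 7, 13 and 6 counts at 1 nM and 6, 1 and 4 at 0.3 nM. In these lists without a call by edgeR, limma's voom called 1 kinase and 1 ribosomal protein. DESeq2 called 1 kinase, 2 ribosomal proteins, 1 lysosome gene, 1 secretory gene and 2 adhesion genes.

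Reference genes were not all level. ACTB, cytoplasmic actin, had 5125, 4224 and 4028 CPM at 1 nM and 3316, 2979 and 3339 CPM at 0.3 nM, with a log2 fold change of 0.47 (SE 0.116, adjusted p = 0.0173 in edgeR's test). PPIA, a cyclophilin with many pseudogene copies, had 2206, 1710 and 1494 CPM at 1 nM and 1452, 1297 and 1448 CPM at 0.3 nM (0.37, SE 0.09). Replicate 1 of 1 nM was the highest library for both, and each call was lost in 3 of 6 leave-outs, with adjusted p-values of up to 0.157 for ACTB and 0.292 for PPIA in edgeR's test, both without that library. GAPDH, the glycolytic enzyme, had 9324, 6568 and 6086 CPM at 1 nM and 6867, 6377 and 6827 CPM at 0.3 nM, overlapping groups with a log2 fold change of 0.13 (SE 0.122) that turned to -0.087 without replicate 1 of 1 nM.

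PLA2G2A, a secreted phospholipase, had the lowest adjusted p of all genes, 1.58e-09 in edgeR's test. It had 120, 91.6 and 87.1 CPM at 1 nM and 49.2, 39.3 and 43 CPM at 0.3 nM, a log2 fold change of 1.17 (SE 0.116), and every 1 nM library was higher. Among the 10 largest rises (picked for 5 CPM or more at 1 nM and non-overlapping groups) were FHOD1, a formin that organises actin, and TNNC1, troponin C of slow muscle. FHOD1 had 6.21, 8.03 and 8.11 CPM at 1 nM and 2.65, 3.2 and 3.57 CPM at 0.3 nM (1.26, SE 0.261). Its means were 6.79 and 5.45 CPM in DMSO of chips 1 and 2, 4.52 CPM at 0.1 nM, 3.14 CPM at 0.3 nM and 7.45 CPM at 1 nM. The 0.3 nM mean was thus below both DMSO means. At 1000 nM FHOD1 was at -0.82 (SE 0.292) against DMSO and was not called. TNNC1 had 18.3, 24.1 and 19.6 CPM at 1 nM and 11.5, 10.8 and 10.9 CPM at 0.3 nM (0.92, SE 0.215), lost in 4 of 6 leave-outs (adjusted p up to 0.0805, without replicate 2 of 1 nM, in edgeR's test). CACNG4, a calcium channel subunit, RET, a receptor tyrosine kinase, ABR, a GTPase regulator, CD36, a fatty acid receptor, and LOC100134868 completed the 10 with HSPE1 and MT1A. Their log2 fold changes were 0.90 to 1.28, with means of 5.49 to 12.6 CPM at 1 nM and 2.17 to 6.78 CPM at 0.3 nM. Each of these 5 lost its call in 3 to 5 of the 6 leave-outs, with adjusted p-values of up to 0.118 for CD36 and 0.224 for ABR in edgeR's test, without replicates 2 and 3 of 0.3 nM.

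TCP11L2, for which no role is given here, was the fall of lowest p, with 26.6, 36.7 and 49.6 CPM at 1 nM and 65.7, 80.7 and 71.5 CPM at 0.3 nM. The 1 nM libraries were spread but all below 0.3 nM, with a log2 fold change of -0.93 (SE 0.129, adjusted p = 2.15e-05 in edgeR's test). RPS6KA5, the kinase MSK1 that ERK and p38 activate, had 17.2, 15.2 and 17.4 CPM at 1 nM and 32, 35.7 and 29.2 CPM at 0.3 nM (-0.96, SE 0.158, adjusted p = 0.000182 in edgeR's test). HSD17B2, which oxidises sex steroids, had 5.17, 7.81 and 7.64 CPM at 1 nM and 18.3, 15.8 and 15.4 CPM at 0.3 nM (-1.23, SE 0.239). LARP6, an RNA-binding protein, had 14.8, 17.6 and 19.8 CPM at 1 nM and 34.8, 31.8 and 35 CPM at 0.3 nM (-0.94, SE 0.164). In these 4 genes the groups were apart, which was a condition for being named among the largest falls. PTPN21, a tyrosine phosphatase, CXCL1, a chemokine, ANXA2P2, MYEOV and MAMDC4 were the other large falls besides EGR1, at log2 fold changes of -0.94 to -1.54 and means of 2.06 to 10.8 CPM at 1 nM and 5.45 to 23.6 CPM at 0.3 nM. Each of these 5 lost its call in 4 or 5 of the 6 leave-outs, with adjusted p-values of up to 0.0643 for MYEOV, without replicate 3 of 1 nM, and up to 0.184 for MAMDC4, without replicate 2 of 1 nM, in edgeR's test. ANXA2P2 is a pseudogene of ANXA2, so its reads are uncertain.

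The called genes were looked at again in libraries that took no part in the step, those of 3 nM against those of 0.1 nM. There the same test called 2650 genes, 21.9% of those tested, with 10.9% higher and 11% lower. Of the 162 genes higher in the step, 134 were higher at 3 nM, 0 were lower and 161 had values above 0, with a median of 0.62. Of the 146 lower in the step, 109 were lower at 3 nM, 1 (STAT2) was higher, and 139 had values below 0, with a median of -0.76. Over all tested genes 50.4% had values above 0, and the median was 0.0029. The 3 against 0.1 nM contrast spans a wider range of doses than the step, so sizes in the 2 contrasts do not compare like with like.

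**Figure D3:**
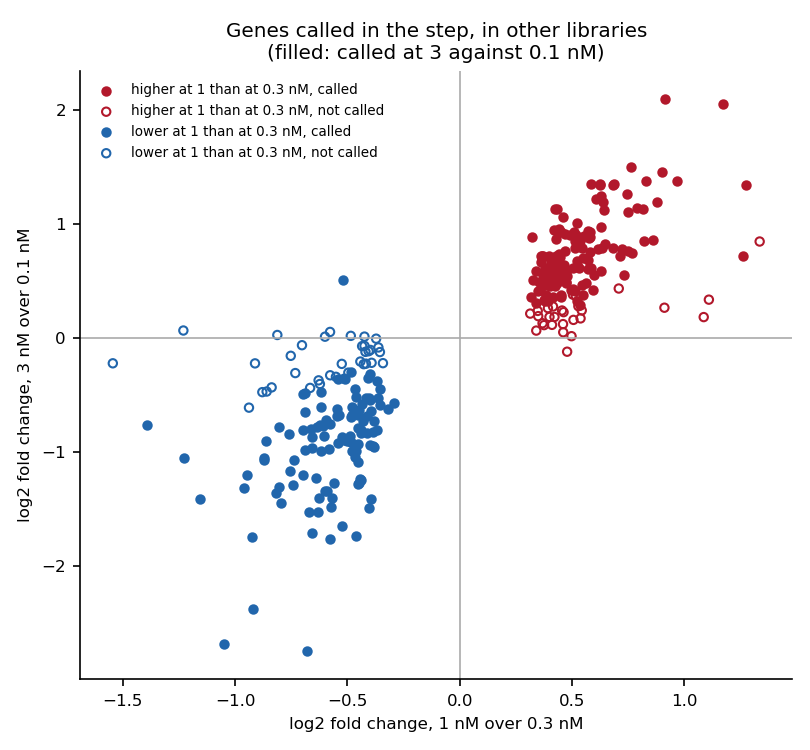
Log2 fold change of the 308 called genes, 1 nM over 0.3 nM (x axis) and 3 nM over 0.1 nM in other libraries (y axis). Filled points were called in both. Of the genes higher in the step (red) 134 of 162 are filled, and of those lower (blue) 109 of 146 are filled below 0, with STAT2 the filled blue point above 0.

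At 3 nM against 0.1 nM, 7 of 10 MAPK activity genes fell (median -0.90), as did 16 of 17 amino acid stress genes (median -1.53) and 7 of 9 serine and one-carbon enzymes (median -1.07). Synthetases fell in 15 of 20 and rose in 1, and ribosome biogenesis genes fell in 22 of 28, with a median of -0.40. Cholesterol genes rose in 17 of 22 (median 0.61), heat shock genes in 8 of 16 with 1 lower, interferon genes in 13 of 23, and G1/S genes in 17 of 36 with 1 lower. HBEGF was at -2.75 (SE 0.177) and EGR1 at -2.69 (SE 0.205) there, PSAT1 at -1.65 (SE 0.099) and TRIB3 at -1.74 (SE 0.111). Of the large changes in the step, PTPN21 was at -0.22 (SE 0.308), ANXA2P2 at 0.065 (SE 0.313) and RET at 0.18 (SE 0.288), none of them called. COL3A1, a fibroblast collagen, was called at 1.94 (SE 0.366). In the step COL3A1 had 2.76, 4.34 and 4.3 CPM at 1 nM and 1.1, 0.686 and 2.67 CPM at 0.3 nM (1.37, SE 0.409, adjusted p = 0.0554 in edgeR's test).

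To describe how much of the response lay between 0.3 and 1 nM, genes called at 1000 nM against DMSO with at least 2-fold change were taken from libraries outside the step. In all 41.8% of tested genes were called there, and 13.8% by at least 2-fold. There were 854 higher (7.06% of tested genes) and 822 lower (6.79%). Of the 854, 46 were called higher in the step and 0 lower, 75.9% had values above 0, and the median was 0.24 in the step and 1.43 at 1000 nM. Of the 822, 78 were called lower in the step and 0 higher, 80.5% had values below 0, and the median was -0.23 in the step and -1.35 at 1000 nM. Of all tested genes, 1.34% were called higher in the step and 1.21% lower. Values above 0 made up 51.2% of them, and their median in the step was 0.0068. The step held a median of 15.4% of the 1000 nM change in genes that were higher there and also 15.4% in genes that were lower.

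The 162 genes higher in the step had a median log2 level over DMSO of 0.033, -0.011, 0.095, 0.57, 0.61, 0.72, 0.73, 0.67, 0.79 and 0.69 at the 10 doses from 0.03 to 1000 nM. For the 146 lower genes the medians were -0.024, -0.036, -0.10, -0.66, -0.77, -0.91, -1.05, -0.998, -1.10 and -1.08. The values at 0.3 and 1 nM were used to choose these genes, so the jump between them is a description and supports nothing. At 0.03 and 0.1 nM both medians were within 0.04 of DMSO, and from 3 nM up both stayed at least as far from it as at 1 nM. At 1000 nM, 106 of the 162 were called higher, 10 lower and 46 not. Of the 146, 111 were called lower, 6 higher and 29 not, beside 21.2% higher and 20.7% lower of all tested genes.

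**Figure D4:**
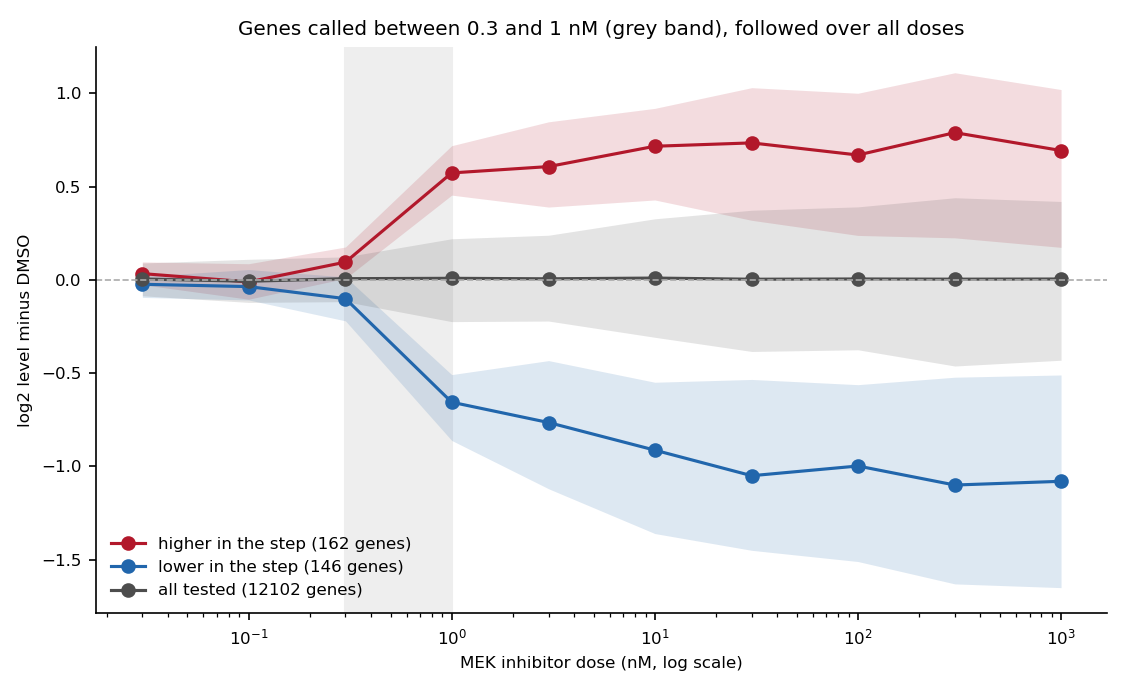
Median log2 level minus DMSO (y axis, bands from the 25th to the 75th percentile of genes) against dose (x axis, log scale) for the 162 genes higher in the step (red), the 146 lower (blue) and all 12102 tested genes (grey). The red median is 0.57 at 1 nM and 0.69 at 1000 nM, and the blue median is -0.66 at 1 nM and -1.08 at 1000 nM. Values at 0.3 and 1 nM chose the genes.

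Several genes of the step had lower levels again at higher doses. MT1A averaged 35.5, 32.5, 40.2, 78.8, 84.1, 52.6, 33, 25.7, 25 and 23.5 CPM from 0.03 to 1000 nM, and was called lower at 1000 nM than in DMSO (log2 fold change -0.54, SE 0.172). E2F1 averaged 40.8 CPM at 0.3 nM, 60.1 CPM at 1 nM, 53.7 CPM at 3 nM and 27.9 CPM at 1000 nM, where it was called lower than in DMSO (-0.43, SE 0.146). PCNA averaged 64.3 CPM at 0.3 nM, 108 CPM at 1 nM, 123 CPM at 3 nM and 65.5 CPM at 1000 nM, where it was not called against DMSO (0.13, SE 0.126). The G1/S list had 4 rises in the step and 0 at 1000 nM, where 25 of its 36 members were lower than in DMSO and the median was -0.74. DHCR7 was not called at 1000 nM, at -0.066 (SE 0.114), whereas INSIG1 was at 1.57 (SE 0.128) and HMGCS1 at 1.74 (SE 0.132). CNPY2, a protein of the endoplasmic reticulum, was higher in the step (0.46) and lower at 1000 nM (-0.37). RAP1A, a RAS-like GTPase, IREB2, an iron sensor that binds RNA, and SYF2, a splicing factor, were lower in the step, at -0.42, -0.36 and -0.36, and called higher at 1000 nM, at 0.34, 0.30 and 0.46. CNPY2, RAP1A, IREB2 and SYF2 lost their step calls in 4 or 5 of the 6 leave-outs, with adjusted p-values of up to 0.0916 for RAP1A, without replicate 1 of 0.3 nM, and up to 0.213 for IREB2, without replicate 1 of 1 nM, in edgeR's test. None of them was called at 3 nM against 0.1 nM. CNPY2 was at 0.05 (SE 0.118) there, RAP1A at 0.011 (SE 0.107), IREB2 at -0.084 (SE 0.096) and SYF2 at -0.12 (SE 0.097). At 0.3, 1 and 3 nM CNPY2 averaged 103, 143 and 106 CPM and RAP1A 60.4, 45 and 61.6 CPM. IREB2 averaged 254, 197 and 225 CPM and SYF2 129, 100 and 110 CPM at these doses.

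**Figure D5:**
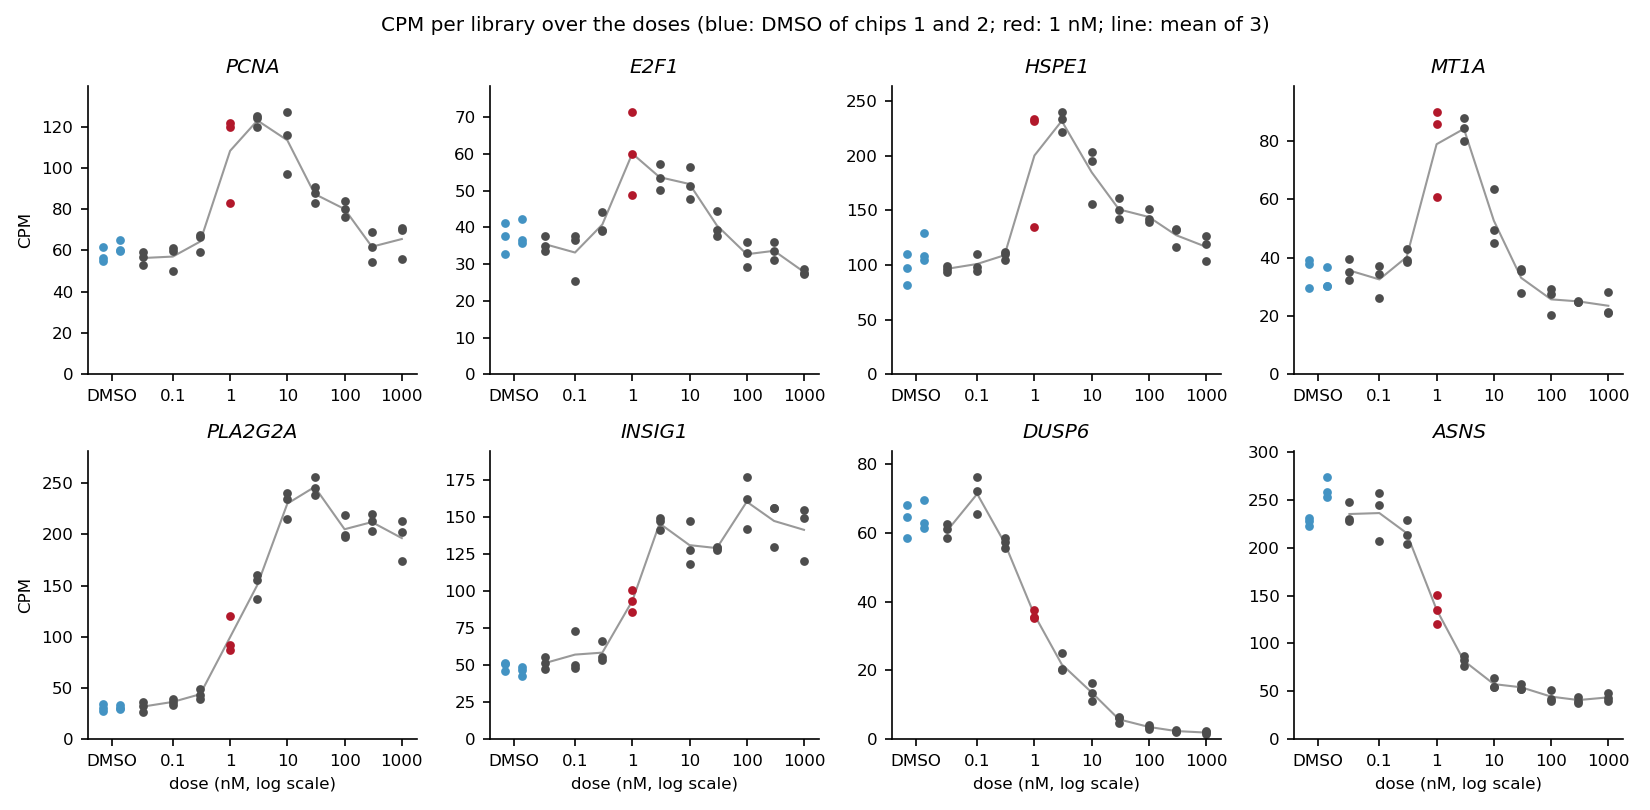
Level (CPM, y axes from 0) in each library against dose (x axis, log scale) for 8 genes, with DMSO libraries of chips 1 and 2 at the left in blue, 1 nM in red and a line through the means of 3. PCNA, E2F1, HSPE1 and MT1A have higher means at 1 and 3 nM than at 0.3 nM and lower ones at 1000 nM than at 3 nM, PLA2G2A and INSIG1 stay high, and DUSP6 and ASNS stay low (1.89 and 43.6 CPM at 1000 nM).

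The onset step was then tested against a step of similar dose ratio higher up, from 10 to 30 nM, which shares no library with it. That later step had 34 calls (0.281% of tested genes), 12 higher (0.0992%) and 22 lower (0.182%). The difference between both steps, tested in the same model, was called in 50 genes (0.413%), of which 34 (0.281%) had the higher value in the onset step and 16 (0.132%) the lower. MT1A was at 0.97 in the onset step and -0.67 in the later one, a difference of 1.64 (SE 0.21, adjusted p = 4.91e-06 in edgeR's test). PCNA was at 0.75 in the onset step and -0.38 in the later one, a difference of 1.12 (SE 0.166, adjusted p = 5.67e-05 in edgeR's test). PLA2G2A was at 1.17 in the onset step and 0.099 in the later one, a difference of 1.07 (SE 0.154, adjusted p = 4.61e-05 in edgeR's test). In the other direction, TCP11L2 was at -0.93 in the onset step and 0.30 in the later one, a difference of -1.23 (SE 0.199).

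H1F0, the linker histone H1.0, had 313, 309 and 389 CPM at 1 nM and 477, 509 and 493 CPM at 0.3 nM, and every 1 nM library was lower. It was at -0.55 in the onset step and 0.26 in the later one, a difference of -0.80 (SE 0.137). ANXA1, annexin A1, had 192, 170 and 166 CPM at 1 nM and 222, 220 and 203 CPM at 0.3 nM, and was at -0.29 in the onset step and 0.37 in the later one, a difference of -0.66 (SE 0.118). Its call in the step was lost in 5 of 6 leave-outs (adjusted p up to 0.156, without replicate 2 of 0.3 nM, in edgeR's test), and at 1000 nM it was higher than in DMSO (0.47, SE 0.083). DUSP6 was not called for the difference, at -0.66 in the onset step and -1.24 in the later one (difference 0.58, SE 0.232, adjusted p = 0.315 in edgeR's test). The median of the MAPK activity list was -0.37 in the onset step and -0.36 in the later one. The count of 50 was 94 without replicate 3 of 1 nM, 24, 25 and 27 without replicates 1, 2 and 3 of 0.3 nM, 28 and 26 without replicates 2 and 3 of 30 nM, and 26 and 28 without replicates 1 and 2 of 10 nM.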

How the data were processed

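LoVo cells were treated for 24 hours, 10 ng of RNA per sample was amplified with Ion AmpliSeq, and 18 libraries were pooled at a time, per the labels' protocols. The values are whole-number counts per gene as the authors deposited them, without normalization. The submitters' processing notes name hg19. No aligner or counter is given in the sources used here. All 36 single files held the same counts as the matrix. Its 20812 rows include 10 spike-in rows with 0 counts.

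The analysis used R 4.3.3 and edgeR 4.0.16. After filterByExpr with 12 groups and TMM scaling, a robust quasi-likelihood model was fitted to all 36 libraries (24 residual degrees of freedom), and 1 nM was contrasted with 0.3 nM. P-values were adjusted by Benjamini-Hochberg over 12102 genes and called below 0.05. For 1000 nM against DMSO, the larger p of both DMSO chips was adjusted and both fold changes had to share a sign. CPM use TMM library sizes, and log2 levels use a prior count of 1. No pairing by replicate number was detected. Correlations of same-numbered deviations were -0.052 to 0.0077 between 1 and 0.3 nM, and -0.011 to 0.046 between 3 and 0.1 nM. With 3 libraries a group, such values cannot show that same-numbered samples were handled separately. DESeq2 1.42.0 and limma 3.58.1 (voom) served as alternatives. The procedure was tested on simulated counts. Counting error is the only error that depth describes, since molecules amplified more than once are counted more than once.

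The comparison, the 45 gene lists and the naming rule were chosen with earlier results of these data known. The rule names, in each direction, the 10 called genes of largest change with non-overlapping groups and a mean of 5 CPM or more, the whole MAPK activity list, up to 4 genes of lists with 3 or more calls and up to 2 of other lists with a call, the nearest gene of further lists, the 3 lowest p of each direction, up to 3 of each direction that were called with the opposite sign at 1000 nM or for the difference of the steps, and MAP2K1, MAP2K2, BRAF, MAPK3, ACTB and GAPDH. A few genes it takes are not reported here. Of the file's symbols 18298 were current, 1667 were synonyms and 837 matched neither in RefSeq tables. Promoters come from RefSeq (GRCh38.p14). No coordinate of the deposited files was used. Figures were drawn with Python 3.11.15 and matplotlib 3.10.9.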

Additional observations from a re-analysis of the deposited data

How the results depend on the processing

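Of 82 called genes taken by the naming rule, all 82 kept their sign in the 14 settings run and 19 stayed called in every one. The 308 calls became 488 without the low-count filter (165 higher, 323 lower), 61 with the 6 libraries alone (20 higher, 41 lower), 82 with those and a replicate block (21 and 61) and 309 with a replicate block on all libraries. They became 304 with DESeq2's size factors in edgeR, 290 with at least 1 CPM in 3 libraries, 325 with voom and 414 with DESeq2, where 3520 adjusted p-values were NA. No pairing by number was detected, so the block is only a check. Leaving out 1 library gave 117 to 378 calls (56 to 184 higher, 61 to 194 lower). The 50 calls for the difference of the steps were 86 without the filter and 24 to 94 with 1 library left out, an alternative chosen after seeing the data. The calls at 3 nM against 0.1 nM were 1892 to 2649 and those at 1000 nM by at least 2-fold 1512 to 1858 over their alternatives. With 1 library left out, values that were not called ranged from -0.062 to 0.082 for CCND1, -0.087 to 0.24 for GAPDH and -0.045 to 0.48 for LYZ, so their signs turned. The causes were not tested. Depth limits genes of a few CPM: at the lowest total, 1 CPM is about 3 counts.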
